A study of Mus musculus with 18 samples.

Results

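The genes described here are 9 complement genes measured in cultures of mouse cardiac fibroblasts: C1ra, C1s1, Masp1, C2, C4b, Cfb, C3, Cd55 and Cd59a. They were taken by symbol from a table of 18264 genes, and all 9 were found in it. Their levels were followed across 18 RNA sequencing libraries of neonatal ventricular cardiac fibroblasts (NVCFs), primary matrix-producing cells of the newborn mouse ventricle. The question put by the study was how Foxm1, a forkhead transcription factor best known for driving cell division, acts in cardiac remodeling.

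The libraries form 6 groups of 3, and the labels name no strain or genotype. In the knockdown arm, si-NC cells received a negative control siRNA and si-Foxm1 cells an siRNA against Foxm1. Ang-II cells were stimulated with angiotensin II, the peptide hormone of the renin system that raises blood pressure and activates cardiac fibroblasts, and si-Foxm1+Ang-II cells received both the Foxm1 siRNA and the hormone. In the overexpression arm, OE-NC was the negative control and OE-Foxm1 overexpressed Foxm1. Not stated in the labels are the dose and time of the hormone, the vector that carried Foxm1, and whether a control siRNA was given to Ang-II cells. If none was given, comparisons with Ang-II cells mix siRNA transfection with the hormone or with the loss of Foxm1. Nor is it stated whether the 3 libraries of a group came from separate cultures, so the p-values measure the spread between these libraries, which may be technical.

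Complement is a cascade of plasma proteins that marks surfaces for removal. In the classical pathway, C1q recruits the proteases C1r and C1s, which cut C4 and C2 to form a convertase that cleaves C3, the central component. The lectin pathway enters at the same point through MASP proteases, the alternative pathway through factor B, and membrane proteins such as CD55 and CD59 protect host cells from the result. The liver makes most circulating complement, and fibroblasts are among the cells that also transcribe parts of it locally, with C1r, C1s and C3 responsive to inflammatory signals in many tissues.

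Each library held between 14988993 and 19343343 fragments, as recovered from the deposited values, and the 3 OE-NC libraries were the shallowest. Foxm1 ran from 9.64 to 10.4 FPKM (fragments per kilobase, relative to the depth of the library) in si-NC and from 5.13 to 6.71 in si-Foxm1, and it was also lower in Ang-II (4.03 to 5.65) and in si-Foxm1+Ang-II (3.03 to 3.55). In the overexpression arm it went from 15.7 to 17.1 FPKM in OE-NC up to 399 to 487 in OE-Foxm1. All 9 fibroblast markers examined, among them Col1a1, Pdgfra and Tcf21, were detected in every group. Markers of other cells were detected too: 8 cardiomyocyte genes summed to 3958 to 11737 FPKM over the libraries and 10 macrophage and leukocyte genes to 126 to 336 FPKM. The 9 fibroblast markers summed to 2606 to 3864 FPKM, below the cardiomyocyte sum in every group. Which cells of the cultures transcribed the complement genes was not tested. Ang-II library 3 differed more from its group than any other library, with a mean chi-square of 5.03 and 5.46 against the other two, where counting error alone would give about 1.

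All 9 genes were transcribed at low to moderate levels, and none was at 0 in any library. Masp1 (5.26 to 13.6 FPKM over the 18 libraries) and Cd59a (4.86 to 8.74) were the highest of them, with a mean above that of 64.0% and 60.8% of all detected genes. C1ra lay between 2.41 and 5.87 FPKM, C3 between 1.24 and 5.47, C1s1 between 1.25 and 3.85, Cd55 between 1.20 and 2.42, and C2 between 0.645 and 1.71. C4b (0.198 to 0.779) and Cfb (0.135 to 0.319) were the lowest. These are levels per length of gene, and the fragments behind them differed more widely. Masp1 rested on 604 to 1890 fragments per library, whereas C2 rested on 33 to 82, C4b on 18 to 75 and Cfb on 7 to 16. Fragments carry no molecular identifiers, so such counts give the counting error only. Added up over the 9 genes, the level ran from 27.2 to 29.7 FPKM in si-NC, 24.1 to 26.4 in si-Foxm1, 31.4 to 32.4 in Ang-II, 21.7 to 24.1 in si-Foxm1+Ang-II, 19.1 to 20.6 in OE-NC and 30.7 to 31.2 in OE-Foxm1.

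**Figure D1:**
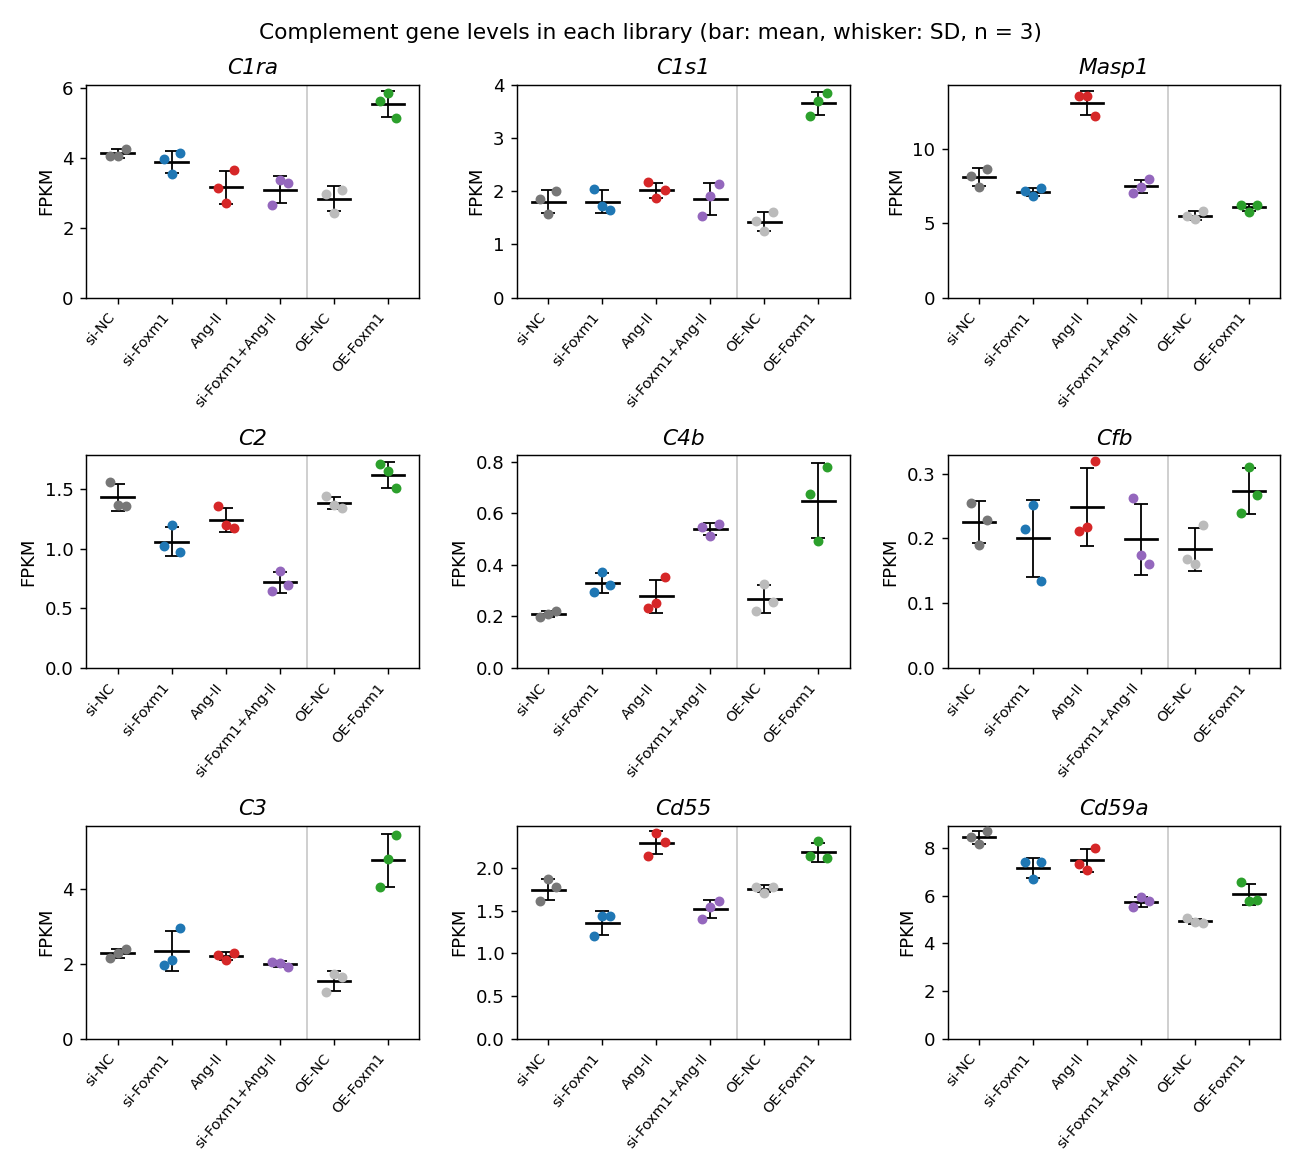
Level of each of the 9 complement genes in FPKM (vertical axis, starting at 0) in every library of the 6 groups (horizontal axis); points are libraries, bars the mean and whiskers the SD of 3 libraries. Masp1 peaks in Ang-II (12.2 to 13.6 FPKM), C3, C1ra and C1s1 peak in OE-Foxm1, and C2 is lowest in si-Foxm1+Ang-II.

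**Figure D2:**
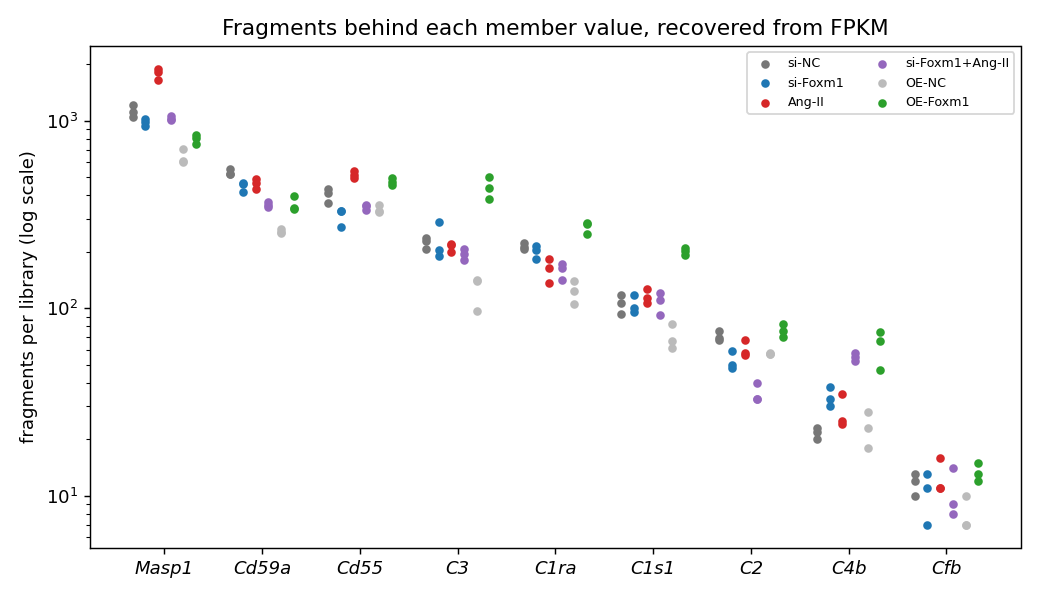
Fragments behind each value (vertical axis, log scale), recovered from FPKM, for the 9 genes (horizontal axis) in every library, coloured by group. Cfb rests on 7 to 16 fragments and C4b on 18 to 75, against 604 to 1890 for Masp1.

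Differences between groups were tested with limma on log2(FPKM + 1) over all genes with a mean of at least 1 FPKM, and a gene was called at an adjusted p under 0.05. On this scale the change of a gene near 1 FPKM is understated, so the ratio of group means in FPKM is given as well. Of the 9 genes, 7 passed this filter in both arms. C4b and Cfb fell below it and are described by their levels, with the tests at a lower filter given beside them. The 9 genes and all lists below were chosen with earlier results of these data known. Shares of them set beside those of all genes are therefore descriptive and test nothing. RNA was taken from whole cultures, so fewer cells of a type and less RNA per cell cannot be told apart in any difference below.

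With the Foxm1 siRNA alone, 4 of the 7 tested genes fell and 0 rose: C2, Cd55, Cd59a and Masp1. Over all 11180 genes tested, 17.2% fell and 48.5% rose. The median change of the 7 was -0.16 on the log2 scale, and that of all tested genes 0.11. The scaling of the libraries bears on these shares: with median-of-ratios scaling the median of all genes moved to 0.00 and the split from 5418 higher and 1924 lower to 2954 and 3273, while the same 4 complement genes were called lower. In these libraries all 7 tested macrophage markers and 7 of 8 tested cardiomyocyte markers fell as well, as did 5 of 6 smooth muscle and pericyte markers, while 4 of 7 endothelial markers rose. Of 9 fibroblast markers 2 rose and 2 fell (1 rose and 6 fell with median-of-ratios scaling). Of 8 epicardial and mesothelial markers 1 rose and 6 fell. The summed macrophage level was 253 to 261 FPKM in si-NC and 130 to 162 in si-Foxm1. The summed cardiomyocyte level was 10862 to 11737 and 5206 to 5592. The part of all these markers in the complement differences was not tested.

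Angiotensin alone moved 4 of the 7 tested genes, 2 in each direction. Masp1 and Cd55 rose, against 15.2% of all tested genes, and C1ra and Cd59a fell, against 29.2%. With median-of-ratios scaling, which changed the overall split from 1702 higher and 3268 lower to 2481 and 2424, Cd59a was no longer called. The median change of the 7 genes and that of all genes were both -0.03. The comparison shares its si-NC libraries with the one before. Of the tested macrophage markers, 2 rose and 1 fell, while all 8 cardiomyocyte markers fell (8147 to 8902 FPKM summed). Of the 9 fibroblast markers 2 rose, Col1a1 (0.88) and Col1a2 (0.71), and 5 fell, among them Thy1 (-2.01), Tcf21 (-0.94) and Pdgfra (-0.91), while the summed level went from 2808 to 2964 FPKM in si-NC to 3752 to 3864 in Ang-II. Of 7 tested endothelial markers 5 fell and 0 rose (74.1 to 81.7 FPKM summed in si-NC, 55.5 to 62.5 in Ang-II). The part of these cell type markers in the complement differences was not tested.

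In the presence of angiotensin, the Foxm1 siRNA again lowered C2, Cd55, Cd59a and Masp1. These 4 of 7 tested genes fell and 0 rose, against 17.4% and 44.0% of all tested genes (4918 higher and 1942 lower, or 3082 and 3116 with median-of-ratios scaling). The median change was -0.33, and 0.09 over all genes. If Ang-II cells received no control siRNA, transfection itself and the loss of Foxm1 cannot be told apart here. The 7 macrophage markers all fell (307 to 336 FPKM summed in Ang-II, 126 to 145 in si-Foxm1+Ang-II), as did 7 of 8 cardiomyocyte markers. Of 9 fibroblast markers 2 rose and 2 fell (1 rose and 5 fell with median-of-ratios scaling), and of 7 endothelial markers 4 rose and 1 fell. The part of these markers in the complement differences was not tested. Without Ang-II library 3, 4 of the complement genes were again called lower here, and 2 higher and 2 lower with angiotensin alone.

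Angiotensin given to si-Foxm1 cells lowered C2, C1ra and Cd59a, and 0 of the 7 rose. With voom 2 rose, Cd55 (0.25, adjusted p = 0.0228) and Masp1 (0.16, adjusted p = 0.0449), and 2 fell, C1ra no longer being called (adjusted p = 0.0730). Over all 11180 genes tested, voom called 2667 higher and 2278 lower. With limma 34.6% of all tested genes fell and 12.9% rose (1441 higher and 3873 lower, or 2466 and 2267 with median-of-ratios scaling, where 2 of the complement genes fell). In this comparison 7 of 8 cardiomyocyte, 6 of 7 endothelial and 2 of 7 macrophage markers fell and 0 of them rose. Of 9 fibroblast markers 2 rose and 6 fell. The part of these markers in the complement differences was not tested. The siRNA effect with angiotensin differed from that without it for 1 of the 7 genes, Masp1, which was called lower. In that test 0.519% of all genes were called lower and 0.403% higher.

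Overexpression of Foxm1 raised 5 of the 7 tested genes and lowered 0. C3, C1s1 and C1ra rose most, and Cd55 and Cd59a by a smaller amount. Of all 11259 genes tested in that arm, 27.1% rose and 28.0% fell. The median change of the 7 genes was 0.25 and that of all genes 0.00. In the same comparison 6 of 7 tested macrophage markers rose (192 to 211 FPKM summed in OE-NC, 276 to 312 in OE-Foxm1) and 6 of 9 fibroblast markers rose and 1, Thy1, fell (-0.57). Of 6 tested smooth muscle and pericyte markers 1 rose and 2 fell (126 to 131 FPKM summed in OE-NC, 104 to 110 in OE-Foxm1). Their part in the complement differences was not tested.

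**Figure D3:**
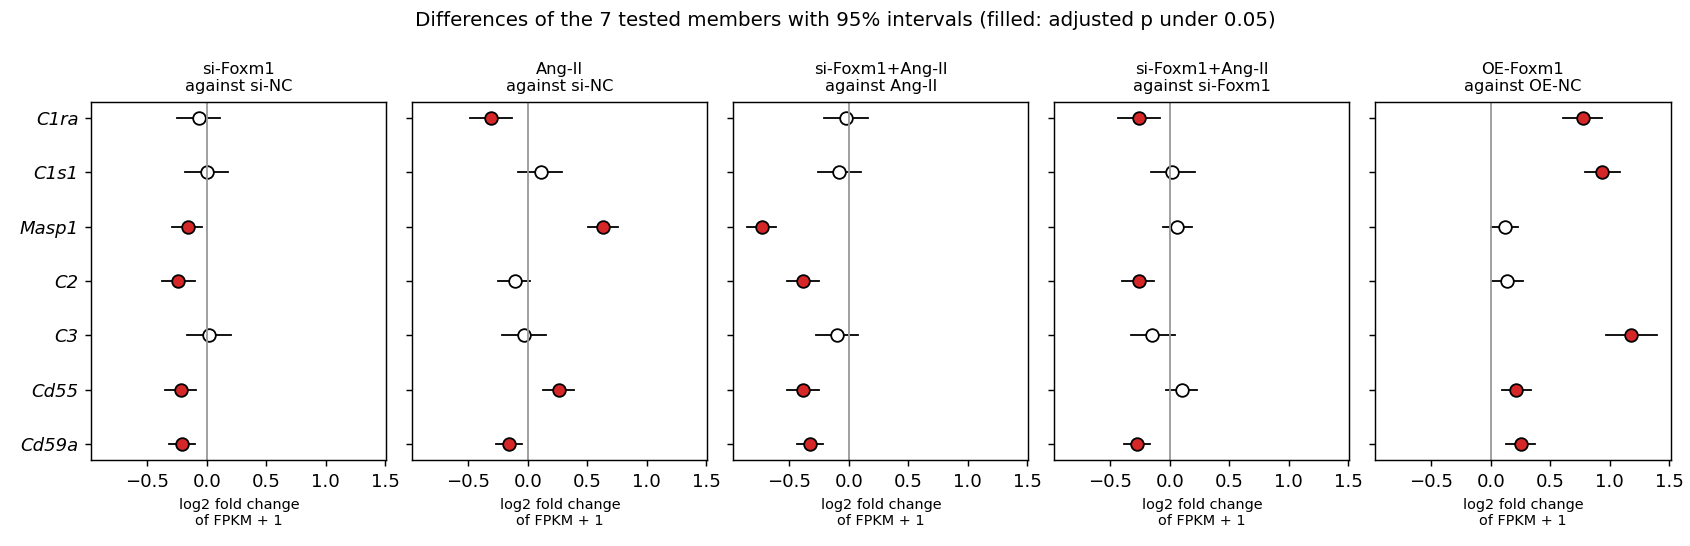
Difference of the 7 tested complement genes (vertical axis) in each of 5 comparisons (panels), as the log2 fold change of FPKM + 1 (horizontal axis) with its 95% interval; filled points have a limma adjusted p under 0.05. C3, C1s1 and C1ra stand apart to the right with Foxm1 overexpression (1.18, 0.94 and 0.78), and Masp1 moves to the right with angiotensin (0.63) and to the left with the siRNA in its presence (-0.73).

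C1ra and C1s1 encode the serine proteases of the C1 complex and are direct neighbours on chromosome 6, with 0 protein-coding genes annotated between them. C1ra was measured at 4.06, 4.06 and 4.27 FPKM in si-NC, 3.97, 3.53 and 4.14 in si-Foxm1, 3.14, 2.70 and 3.65 in Ang-II, and 2.64, 3.36 and 3.27 in si-Foxm1+Ang-II. It was thus lower in both groups given angiotensin than in their counterparts, without overlap. The fall was 0.31 ± 0.08 (log2, SE) against si-NC, with a limma adjusted p of 0.00917, and 0.26 ± 0.08 against si-Foxm1, with an adjusted p of 0.0215. The latter passed the threshold narrowly: the adjusted p was 0.0825 with median-of-ratios scaling, 0.197 with quantile normalization and 0.0730 with voom on recovered fragments. The siRNA made no detectable difference to C1ra, with a 95% interval of -0.25 to 0.11 without angiotensin and of -0.21 to 0.16 with it.

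C1s1 was at 1.85, 1.58 and 2.01 FPKM in si-NC, 2.05, 1.73 and 1.65 in si-Foxm1, 2.17, 1.87 and 2.02 in Ang-II, and 1.53, 1.91 and 2.14 in si-Foxm1+Ang-II. These 4 groups overlapped throughout, and no comparison among them was called. The siRNA difference was 0.00 ± 0.08 (95% interval -0.18 to 0.18) and the angiotensin difference 0.11 ± 0.08 (-0.08 to 0.29).

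With Foxm1 overexpression both protease genes rose. C1ra went from 2.97, 2.41 and 3.09 FPKM in OE-NC to 5.62, 5.87 and 5.15 in OE-Foxm1, a ratio of means of 1.96 and a log2 change of 0.78 ± 0.07 (limma adjusted p = 1.40e-05). C1s1 went from 1.44, 1.25 and 1.61 FPKM to 3.42, 3.71 and 3.85, a ratio of 2.55 and a log2 change of 0.94 ± 0.07 (adjusted p = 2.30e-06). For both genes the OE-Foxm1 libraries were the 3 highest of all 18, and OE-NC had the lowest group mean. Their near-identical copies took few fragments. C1s2 held between 0 and 6 fragments per library beside 61 to 210 for C1s1. C1rb held between 0 and 5 beside C1ra in 15 libraries, but 24 in si-NC library 3 (9.72% of the pair), 20 in si-Foxm1+Ang-II library 1 (12.4%) and 10 in OE-NC library 2 (8.70%), and how the authors' counting divided fragments between copies is not given in the sources used here.

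Promoter sequence was read for the genes that rose most with Foxm1, to show what lies in front of them. RefSeq entries were found for 5 of the 9 genes (C1ra, C1s1, C3, Cd55 and Cd59a), on GRCm38.p6, an older build than the mm39 genome of the expression values. The windows are the 250 bases before the annotated start, 5′ to 3′ on the strand of the gene. They were searched on both strands for a C/EBP motif (TTGCNNAA), an NF-kB motif (GGGNNNNNCC), an interferon response element (TTTCNNTTTC) and a STAT motif (TTCNNNGAA). The shorter motifs searched were TAAACA for forkhead factors, GGGCGG for the GC box bound by Sp1, CCAAT for the box bound by NF-Y, and TATAAA for the TATA box. Capitals mark the matches, except those of the GC box and CCAAT, which are not marked. C1ra lies at chr6:124512371-124512620 (plus strand) and C1s1 at chr6:124542360-124542609 (minus strand, the first of a pair of annotated starts).
C1ra: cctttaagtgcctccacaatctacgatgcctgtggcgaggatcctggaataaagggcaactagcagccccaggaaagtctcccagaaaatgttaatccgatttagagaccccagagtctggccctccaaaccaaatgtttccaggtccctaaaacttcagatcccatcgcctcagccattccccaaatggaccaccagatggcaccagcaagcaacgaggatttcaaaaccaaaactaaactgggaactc
C1s1: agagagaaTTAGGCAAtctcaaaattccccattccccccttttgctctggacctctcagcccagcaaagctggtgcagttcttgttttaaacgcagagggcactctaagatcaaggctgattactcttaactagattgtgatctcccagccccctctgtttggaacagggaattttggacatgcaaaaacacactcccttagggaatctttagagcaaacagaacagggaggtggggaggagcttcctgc
The C1ra window held 0 matches. The C1s1 window held a C/EBP match on the opposite strand at -242 to -235 from the start, and the window of its other start held an NF-kB match at -35 to -26. Among 27025 mouse promoter windows of this length, 9.55% held a C/EBP match and 45.4% an NF-kB match. A match describes letters only, and the absence of one says nothing on whether a factor binds.

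Masp1, which encodes serine proteases of the lectin pathway, was the gene of the set most changed by angiotensin. It was measured at 8.18, 7.47 and 8.65 FPKM in si-NC and at 13.6, 13.6 and 12.2 in Ang-II. With the siRNA it was at 7.16, 6.81 and 7.37 FPKM in si-Foxm1 and at 7.07, 7.44 and 7.96 in si-Foxm1+Ang-II. The 3 Ang-II libraries were the highest of all 18, and the si-Foxm1+Ang-II libraries overlapped with those of si-NC and of si-Foxm1.

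Against si-NC, angiotensin raised Masp1 1.62-fold (log2 0.63 ± 0.06, limma adjusted p = 1.19e-06). In si-Foxm1 cells the same stimulus changed it by 0.06 ± 0.06 (95% interval -0.06 to 0.19, adjusted p = 0.377), and with voom it was called higher (0.16, adjusted p = 0.0449). The siRNA lowered Masp1 by 1.75-fold in the presence of angiotensin (log2 -0.73 ± 0.06, adjusted p = 1.74e-07). Without angiotensin it lowered it by 1.14-fold (log2 -0.16 ± 0.06, adjusted p = 0.0223), a call that was lost without si-NC library 1 (adjusted p = 0.0582), si-NC library 3 (0.105) or si-Foxm1 library 2 (0.0856). The 2 siRNA effects differed by -0.57 ± 0.08 with an adjusted p of 0.00465. Over 21 alternatives this difference ran from -0.62 to -0.52 and its adjusted p from 5.75e-04 to 0.0230, and without Ang-II library 3 it was -0.62.

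Between the overexpression groups, Masp1 was at 5.46, 5.26 and 5.83 FPKM in OE-NC and at 6.24, 5.79 and 6.21 in OE-Foxm1. The groups overlapped, and the difference of 0.12 ± 0.05 (95% interval 0.00 to 0.23) had an adjusted p of 0.0723. It was called with voom (adjusted p = 0.0156). The table gives 1 value per gene, so the splice forms of Masp1, which encode different proteins, are not told apart. Across the 18 libraries, the genes whose pattern was most like that of Masp1, by the root mean square difference of centred log2(FPKM + 1), were Fbxo31 (0.110), Arhgef26 (0.133) and Spon1 (0.142). Their means in Ang-II, 10.3, 3.96 and 6.68 FPKM, were also the highest of the 6 groups, which follows largely from how they were picked.

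C2 encodes the protease that supplies the active site of the classical and lectin C3 convertase. Its levels were 1.56, 1.37 and 1.36 FPKM in si-NC, 1.02, 1.20 and 0.970 in si-Foxm1, 1.36, 1.20 and 1.17 in Ang-II, and 0.645, 0.815 and 0.692 in si-Foxm1+Ang-II. The last group was the lowest of all 6, and all 3 of its libraries lay below every other library. The siRNA lowered C2 by 1.35-fold without angiotensin (log2 -0.24 ± 0.06, limma adjusted p = 0.00488) and by 1.73-fold with it (log2 -0.39 ± 0.06, adjusted p = 1.49e-04). These effects did not differ beyond their error (-0.15 ± 0.09, 95% interval -0.34 to 0.05, adjusted p = 0.488).

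Angiotensin lowered C2 in si-Foxm1 cells, by 1.48-fold (log2 -0.26 ± 0.06, adjusted p = 0.00401, and 0.0543 with quantile normalization). In control cells the difference was -0.11 ± 0.06 (95% interval -0.25 to 0.02, adjusted p = 0.165). Because C2 is close to 1 FPKM, the scale matters to the size of its change: with voom on recovered fragments the siRNA difference was -0.56 without angiotensin and -0.89 with it. Under overexpression, C2 was at 1.44, 1.37 and 1.34 FPKM in OE-NC and at 1.71, 1.65 and 1.51 in OE-Foxm1. The groups lay apart by 1.17-fold, and the difference of 0.14 ± 0.06 (95% interval 0.01 to 0.27) had an adjusted p of 0.0716.

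C4b, which encodes complement C4, was highest in the knockdown arm where C2 was lowest. Its levels were 0.198, 0.211 and 0.222 FPKM in si-NC, 0.295, 0.372 and 0.322 in si-Foxm1, 0.232, 0.250 and 0.352 in Ang-II, and 0.548, 0.512 and 0.557 in si-Foxm1+Ang-II. In fragments summed over the 3 libraries, these were 65, 101, 84 and 165. The si-Foxm1+Ang-II libraries were above all others of that arm, at 1.94 times the mean of Ang-II and 1.63 times that of si-Foxm1. In the overexpression arm C4b was at 0.219, 0.325 and 0.256 FPKM in OE-NC (69 fragments) and at 0.676, 0.492 and 0.779 in OE-Foxm1 (189 fragments), a ratio of 2.43 with no overlap.

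C4b was tested where genes down to a mean of 0.1 FPKM entered, with voom on recovered fragments, a choice made after its level was seen. It was higher in si-Foxm1+Ang-II than in Ang-II (log2 0.87 ± 0.19, adjusted p = 6.17e-04) and than in si-Foxm1 (0.79 ± 0.18, adjusted p = 0.00107), and OE-Foxm1 exceeded OE-NC (1.27 ± 0.23, adjusted p = 6.19e-05). Of all genes in those tests, 24.5%, 20.9% and 26.0% were called higher. The siRNA difference without angiotensin was 0.50 ± 0.22 with an adjusted p of 0.0644 in that test, and 0.13 ± 0.05 with an adjusted p of 0.0224 with limma on log2(FPKM + 1) at the same filter. A change of the siRNA effect by angiotensin was not called (0.37 ± 0.29, adjusted p = 0.633). No gene with the symbol of the copy C4a was among those with deposited values, and fragments from C4a could have been counted for C4b.

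Cfb encodes factor B, the protease component of the alternative pathway, and is the direct neighbour of C2 on chromosome 17, where C4b lies a further 5 protein-coding genes away. It was at 0.255, 0.190 and 0.229 FPKM in si-NC, 0.214, 0.252 and 0.135 in si-Foxm1, 0.211, 0.218 and 0.319 in Ang-II, and 0.262, 0.175 and 0.160 in si-Foxm1+Ang-II. With 31 to 38 fragments per group, no difference among these 4 groups was detectable at this depth. In the overexpression arm it was at 0.169, 0.161 and 0.221 FPKM in OE-NC and at 0.240, 0.311 and 0.267 in OE-Foxm1 (24 and 40 fragments). The groups did not overlap, but the voom difference of 0.55 ± 0.34 had an adjusted p of 0.184. The 3 neighbours in this stretch of chromosome 17 therefore did not share a pattern in the knockdown arm: C2 was lowest and C4b highest in si-Foxm1+Ang-II, and Cfb overlapped in all 4 groups.

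C3 encodes the component on which all 3 pathways converge. In the knockdown arm it was at 2.15, 2.30 and 2.40 FPKM in si-NC, 1.96, 2.11 and 2.96 in si-Foxm1, 2.24, 2.10 and 2.30 in Ang-II, and 2.05, 2.02 and 1.92 in si-Foxm1+Ang-II. No comparison of these groups was called. The siRNA difference was 0.02 ± 0.09 (95% interval -0.17 to 0.20) and the angiotensin difference -0.03 ± 0.09 (-0.22 to 0.15). The si-Foxm1+Ang-II libraries lay just below those of Ang-II without overlap, by 0.10 ± 0.09 (limma adjusted p = 0.326). Within si-Foxm1, library 1 to library 3 spanned 1.96 to 2.96 FPKM, and without library 1 the angiotensin difference in si-Foxm1 cells became -0.23 with an adjusted p of 0.0467, against -0.15 and 0.174 with it.

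With Foxm1 overexpression C3 showed the largest change of the 7 tested genes. It was at 1.24, 1.73 and 1.64 FPKM in OE-NC (97, 142 and 140 fragments) and at 4.06, 4.81 and 5.47 in OE-Foxm1 (382, 437 and 501 fragments). The means were 1.54 ± 0.260 and 4.78 ± 0.708 (SD, n = 3). This is a 3.11-fold difference and a log2 change of 1.18 ± 0.10 (limma adjusted p = 5.13e-06). Every OE-Foxm1 library was above every other library of the series, and every OE-NC library below those of the knockdown arm. Such ranks across the arms also hold the difference between their controls. Over 15 alternatives the log2 change ran from 1.10 to 1.64. The 3 genes most like C3 in pattern over the 18 libraries were Dnaaf3 (root mean square difference 0.143), Tlr2 (0.168) and Slc11a2 (0.187), and Dnaaf3 and Slc11a2 were also among the 3 most like C1s1 (0.153 and 0.144), after Ccng2 (0.123).

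The C3 window, at chr17:57228137-57228386 on the minus strand, is shown with its matches in capitals.
C3: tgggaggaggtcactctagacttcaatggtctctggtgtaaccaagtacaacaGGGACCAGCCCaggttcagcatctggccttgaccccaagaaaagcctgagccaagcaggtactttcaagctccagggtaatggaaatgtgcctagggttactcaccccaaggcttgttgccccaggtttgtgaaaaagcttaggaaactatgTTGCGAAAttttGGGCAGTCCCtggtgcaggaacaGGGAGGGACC
It held a C/EBP match, TTGCGAAA, at -45 to -38, and NF-kB matches at -197 to -187 (overlapping matches on both strands), at -33 to -24 and at -10 to -1. The C/EBP match stood next to the NF-kB match at -33 to -24. Whether any factor acts on C3 through these letters was not tested. Levels were read separately for a list of 24 inflammatory regulators and acute phase genes, some of which encode C/EBP or NF-kB factors. This list was chosen with earlier results of these data known, so its shares only describe it. With Foxm1 overexpression 18 of the 22 tested rose and 1 fell, against 27.1% and 28.0% of all genes, with a median of 0.51 against 0.00. Ccl2 (2.45 ± 0.07), Cxcl1 (2.21 ± 0.09) and Icam1 (1.19 ± 0.05), which encode chemokines and an adhesion molecule, and Cebpd (1.17 ± 0.05), which encodes C/EBP delta, had the smallest adjusted p (4.22e-09 for Ccl2 and at most 9.18e-08 for the others). With the siRNA alone 9 of 18 tested genes of that list rose and 5 fell (4 and 6 with median-of-ratios scaling), against 48.5% and 17.2% of all genes, so the share that rose was near that of all genes. Cebpd was among those that fell (-0.44 ± 0.10, limma adjusted p = 0.00192), while C3 was not called (0.02 ± 0.09). The part of these genes in the C3 difference was not tested. Of a list of interferon response genes, 9 of 21 rose and 2 fell with Foxm1 overexpression, against the same 27.1% and 28.0%, with a median of 0.12.

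Cd55 and Cd59a encode membrane-anchored inhibitors, CD55 (decay accelerating factor), which takes convertases apart, and CD59, which blocks the membrane attack complex. Cd55 was at 1.61, 1.87 and 1.78 FPKM in si-NC, 1.20, 1.44 and 1.44 in si-Foxm1, 2.15, 2.42 and 2.31 in Ang-II, and 1.41, 1.54 and 1.62 in si-Foxm1+Ang-II. Angiotensin raised it 1.31-fold in control cells (log2 0.26 ± 0.06, limma adjusted p = 0.00339). The siRNA lowered it by 1.29-fold without angiotensin (-0.22 ± 0.06, adjusted p = 0.00550) and by 1.51-fold with it (-0.39 ± 0.06, adjusted p = 9.97e-05), so that the si-Foxm1+Ang-II libraries overlapped with si-NC only at their upper end.

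Within si-Foxm1 cells the angiotensin difference of Cd55 was 0.10 ± 0.06 (95% interval -0.03 to 0.23, adjusted p = 0.210), and it was called with quantile normalization (0.21, adjusted p = 0.0145) and voom (0.25, adjusted p = 0.0228). As in C2, angiotensin made no detectable difference to the siRNA effect (-0.16 ± 0.09, adjusted p = 0.421). In the overexpression arm Cd55 rose from 1.78, 1.71 and 1.78 FPKM to 2.14, 2.32 and 2.12, a ratio of 1.25 (log2 0.21 ± 0.06, adjusted p = 0.00838), with no overlap. Its neighbouring copy Cd55b held at most 3 fragments in any library beside 272 to 539 for Cd55.

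Cd59a was at 8.46, 8.20 and 8.74 FPKM in si-NC, 7.43, 6.69 and 7.43 in si-Foxm1, 7.36, 7.10 and 8.03 in Ang-II, and 5.53, 5.95 and 5.77 in si-Foxm1+Ang-II. It was highest in si-NC, lower with either treatment and lowest of the arm with both, and the group with both did not overlap with any other of the arm. The siRNA lowered it by 1.18-fold without angiotensin (log2 -0.21 ± 0.05, limma adjusted p = 0.00261) and by 1.30-fold with it (-0.33 ± 0.05, adjusted p = 8.75e-05). Angiotensin lowered it by 1.25-fold in si-Foxm1 cells (-0.28 ± 0.05, adjusted p = 5.86e-04). In control cells the fall of 0.16 ± 0.05 (adjusted p = 0.0237) was lost with quantile normalization (adjusted p = 0.128), median-of-ratios scaling (0.0941) and voom (0.0972), and without si-NC library 1 or 3 or Ang-II library 1 or 2.

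The effects of the siRNA on Cd59a with and without angiotensin did not differ beyond their error (-0.12 ± 0.07, adjusted p = 0.486). Foxm1 overexpression raised Cd59a from 5.07, 4.88 and 4.86 FPKM to 6.57, 5.80 and 5.82, a ratio of 1.23 (log2 0.25 ± 0.05, adjusted p = 0.00292), with no overlap. Its neighbouring copy Cd59b held 3 to 14 fragments per library beside 253 to 551 for Cd59a. The promoter windows of both inhibitor genes are shown for comparison with those of C3 and the C1 proteases, which rose more with Foxm1. That of Cd55 is at chr1:130462745-130462994 (minus strand) and that of Cd59a at chr2:104095551-104095800 (plus strand).
Cd55: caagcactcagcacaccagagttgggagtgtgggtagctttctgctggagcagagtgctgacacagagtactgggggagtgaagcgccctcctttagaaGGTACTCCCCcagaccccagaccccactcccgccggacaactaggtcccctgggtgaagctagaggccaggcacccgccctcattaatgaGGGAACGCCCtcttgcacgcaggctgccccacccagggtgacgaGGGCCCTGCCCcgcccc
Cd59a: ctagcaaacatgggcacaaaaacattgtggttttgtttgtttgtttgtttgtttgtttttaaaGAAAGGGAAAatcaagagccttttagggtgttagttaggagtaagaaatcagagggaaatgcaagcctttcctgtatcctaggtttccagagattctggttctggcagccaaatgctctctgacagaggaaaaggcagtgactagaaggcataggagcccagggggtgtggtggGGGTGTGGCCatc
The Cd55 window held NF-kB matches at -151 to -142, at -61 to -52 and at -17 to -7, and GC boxes at -77 to -72 and at -7 to -2, where 32.9% of all windows hold a GC box. The Cd59a window held an interferon response element at -187 to -178, found in 3.04% of all windows, and an NF-kB match at -13 to -4. None of the 5 genes had a forkhead, STAT, CCAAT or TATA match in the windows searched, against 12%, 7.18%, 34.5% and 13% of all windows.

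Among the rest of the complement system, the regulators Clu and Serping1 were more abundant than any of the 9 genes in every library. Tests were made on 5 of the 16 further regulators described here. Clu, which encodes the terminal complex inhibitor clusterin, was at 198, 205 and 198 FPKM in si-NC, 206, 212 and 202 in si-Foxm1, 360, 341 and 328 in Ang-II, and 283, 299 and 277 in si-Foxm1+Ang-II. Angiotensin raised it (log2 0.77 ± 0.04, adjusted p = 5.90e-09), and the siRNA lowered it in the presence of angiotensin (-0.26 ± 0.04, adjusted p = 4.36e-05) but not detectably without (0.04 ± 0.04, adjusted p = 0.337). The siRNA effects differed for Clu as they did for Masp1, by -0.30 ± 0.05 (adjusted p = 0.0175).

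Serping1, which encodes the C1 inhibitor that inactivates C1r, C1s and MASP proteases, was at 70.7, 62.0 and 68.3 FPKM in si-NC and at 21.0, 19.5 and 31.9 in Ang-II. Its fall of 1.46 ± 0.13 (adjusted p = 1.19e-06) stood beside 0.31 for C1ra on the same scale. In si-Foxm1 and si-Foxm1+Ang-II it was at 81.5, 76.6 and 88.0 and at 26.6, 21.9 and 25.0 FPKM, so that angiotensin lowered it with the siRNA too (-1.70 ± 0.13, adjusted p = 3.67e-07). Ang-II library 3 was the highest of its group.

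With Foxm1 overexpression 4 of these 5 tested regulators rose and 0 fell, against 27.1% and 28.0% of all genes: Clu by 0.90 ± 0.03, Serping1 by 0.47 ± 0.04, Cr1l, which encodes a membrane regulator of C3 convertases in rodents, by 0.19 ± 0.04, and Cfi, which encodes the protease factor I and is named after its values were seen. Cr1l also rose with angiotensin in control cells (0.28 ± 0.03) and si-Foxm1 cells (0.16 ± 0.03). Of the 6 tested among 18 further components, 4 fell and 2 rose with Foxm1 overexpression, against the same shares. Those that fell included all 3 chains of C1q, the recognition unit of C1, which macrophages are known to make (C1qa, C1qb and C1qc, named after their values were seen). C1qb fell from 3.99, 3.39 and 4.26 FPKM in OE-NC to 2.05, 1.76 and 1.91 in OE-Foxm1 (-0.74). In the same libraries 6 of 7 tested macrophage markers rose. With the siRNA 4 components fell and 2 rose, against 17.2% and 48.5% of all genes. Of those that fell, 3 were again the C1q chains (-0.76, -0.73 and -0.95), and 7 of 7 macrophage markers fell too. The part of macrophages in the C1q differences was not tested.

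The collectin Colec12, a scavenger receptor with a lectin domain, rose with the siRNA (0.39 ± 0.11) and fell with angiotensin (-0.77 ± 0.11). Of 10 listed receptors and binding proteins, 5 were tested, and 2 rose and 3 fell with the siRNA, against 48.5% and 17.2% of all genes. The 2 that rose were C1qbp, a mitochondrial protein that binds C1q (0.38 ± 0.04), and Cd93, a membrane protein of endothelium and myeloid cells once described as a C1q receptor (0.35 ± 0.04). With overexpression C1qbp fell (-0.26 ± 0.03) and Cd93 was not called (-0.02 ± 0.06), while 3 of the 5 rose, against 27.1% of all genes. These 3 genes (C3ar1, Itgam and Itgb2) are known chiefly from leukocytes, and the largest rise among them was that of Itgam, from 1.41, 1.84 and 1.23 FPKM to 3.58, 2.95 and 2.95 (0.74, named after its values were seen).

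**Figure D4:**
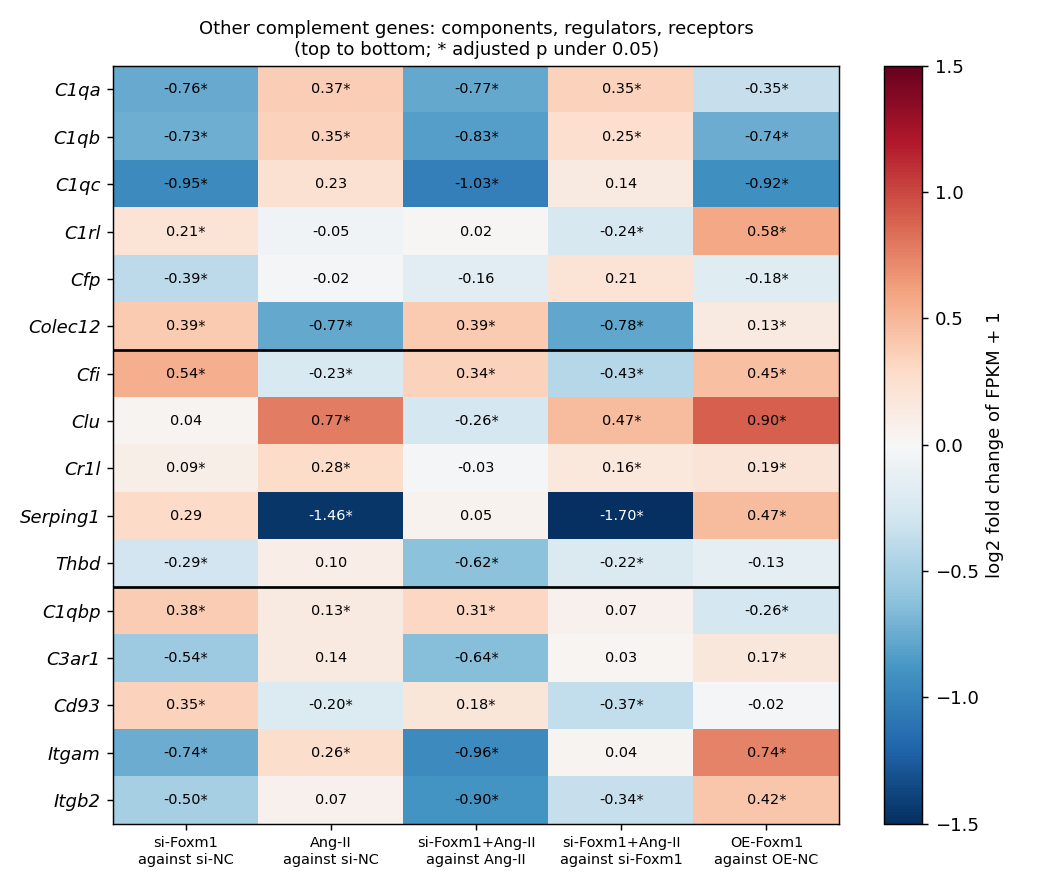
Differences of 16 other tested complement genes (vertical axis; components above the first line, regulators between the lines, receptors and binding proteins below) in 5 comparisons (horizontal axis), coloured and printed as the log2 fold change of FPKM + 1; an asterisk marks a limma adjusted p under 0.05. Serping1 (-1.46) is the lowest with angiotensin, and Clu (0.90) the highest with Foxm1 overexpression.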

How the data were processed

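Per the labels' protocols, total RNA went into TruSeq stranded mRNA libraries. Tools named in the submitters' processing notes are fastp, HISAT2 and HTSeq, with genome build mm39. Versions and settings were not given in the sources used here. FPKM values, scaled by the authors to gene length and library total, were deposited. Whole fragment counts and totals were recovered from ratios of FPKM between libraries (17960 genes above 0, all whole within 0.02). They gave the depth and the input of voom, which ran with TMM factors computed from the recovered counts.

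Groups came from the sample titles. Log2(FPKM + 1) was fitted with limma 3.58.1 in R 4.3.3 (eBayes with a mean-variance trend, two-sided), the 12 knockdown libraries in 1 fit and the 6 overexpression libraries in another, over genes with a mean of at least 1 FPKM. Benjamini-Hochberg adjustment ran over all tested genes, and the code was tested on simulated data. The 9 genes and all lists were chosen with earlier results of these data known. All 9 were named. Of other complement genes, those called in the knockdown arm with a mean of at least 5 FPKM were named, and of the other lists up to 4 with the smallest p. As alternatives, the filter was lowered to 0.1 FPKM or dropped, the pseudocount set to 0.1, libraries rescaled by quantiles or median of ratios, all 18 libraries or only the compared groups fitted, a replicate block added, voom used, and each library left out. Voom with a filter at 0.1 FPKM was added after seeing the data. Python 3.11.15 with pandas 2.3.3 made the tables. Not every complement gene is reported here.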

Additional observations from a re-analysis of the deposited data

Results flagged for a closer look

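Masp1 responded to the Foxm1 siRNA by different amounts with and without angiotensin. The effect was -0.73 in the presence of the hormone and -0.16 in its absence, and the test of the difference gave -0.57 ± 0.08 (log2 of FPKM + 1, limma adjusted p = 0.00465). All 3 si-Foxm1+Ang-II libraries (7.07 to 7.96 FPKM) lay below all 3 Ang-II libraries (12.2 to 13.6). The macrophage markers summed to 307 to 336 FPKM in Ang-II and 126 to 145 in si-Foxm1+Ang-II, and to 253 to 261 in si-NC and 130 to 162 in si-Foxm1. The cardiomyocyte markers summed to 8147 to 8902 and 3958 to 4065 FPKM with angiotensin, and to 10862 to 11737 and 5206 to 5592 without. In the test of the difference 0 of 7 macrophage markers and 0 of 8 cardiomyocyte markers were called, against 0.519% of all genes lower and 0.403% higher. At such shares a set this small would hold few calls or none, so these counts say little. With quantile normalization 3 cardiomyocyte markers were called lower, and with median-of-ratios scaling 1 was called higher. The part of these markers in the Masp1 difference was not tested. Whether Ang-II cells received a control siRNA is not stated, so a part of transfection in this difference cannot be told apart either.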

How the results depend on the processing

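Over 904 alternative values of the 9 genes, 863 kept their direction or stayed on the same side of the threshold, 20 lost a call and 0 called values reversed. The other 21 were called where the main fit gave no call or no test. Those with no test in the main fit were values of C4b and Cfb. Genes called in the interaction numbered 103, and 57 with no filter, 170 with all 18 libraries in 1 fit, 260 with voom and 268 with voom down to 0.1 FPKM, and the cause was not tested. Complement genes called between si-Foxm1+Ang-II and si-Foxm1 numbered 3 (0 higher, 3 lower), 4 with voom at the same filter (Cd55 and Masp1 higher, 2 lower, C1ra lost), and 5 with voom down to 0.1 FPKM (C4b, Cd55 and Masp1 higher, 2 lower), where method and filter change together. Over all genes these settings gave 1441 higher and 3873 lower, 2667 and 2278, and 2860 and 2638. With each library left out, the complement genes called numbered 3 to 4 (siRNA), 3 to 4 (angiotensin), 4 (siRNA with angiotensin), 2 to 3 (angiotensin with siRNA), 1 (interaction) and 5 to 6 (overexpression). All genes called then numbered 6666 to 7572, 4198 to 4953, 6143 to 6821, 4649 to 5497, 37 to 196 and 5506 to 5836. Deviations of same-numbered libraries correlated over 0.1 in 7 of 21 pairs (from -0.04 to 0.18), most of them between libraries numbered 2. Since not every pair passed 0.1, the numbers were not taken as pairs. A replicate block changed none of the calls of the complement genes that could be tested and gave 7411, 5008, 6945, 5397, 137 and 6210 genes called in the same order of comparisons. Cfb passed the threshold with Foxm1 overexpression only where no filter was applied (0.10, adjusted p = 0.0378), and its 7 to 16 fragments per library limit what can be seen.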

Other observations

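Other genes with a pattern like those of the complement genes were looked up by the same measure for 4 of the 9 genes not covered in this way above, and are named after their values were seen. They were picked on the same 18 libraries, so a highest or lowest group shared with the complement gene follows largely from the choice. Those nearest to Cd59a were Jph2 (root mean square difference 0.067), Crip2 (0.069) and Rbpms (0.074), and Jph2, which encodes a junction protein of heart muscle, had group means from 99.5 FPKM in si-NC down to 59.4 in OE-NC, the groups at which Cd59a was also highest and lowest. Those nearest to Cd55 were Cyp51 (0.063), Ap3m1 (0.070) and Insig1 (0.072), whose means were highest in Ang-II and OE-Foxm1, as were those of Cd55. Cyp51 and Insig1 are genes of sterol synthesis and its control. Those nearest to C1ra were Elovl6 (0.103), Slfn5 (0.103) and Faap24 (0.116), each with its highest mean in OE-Foxm1. Those nearest to C2 were Srpk2 (0.070), Alas1 (0.075) and Adam9 (0.077), each with its lowest mean in si-Foxm1+Ang-II.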
